A study of Schizosaccharomyces pombe with 8 samples.

Results

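The short protein-coding genes of the fission yeast Schizosaccharomyces pombe were taken as the gene rows on chromosomes I, II and III whose row, from first to last annotated base, is under 750 nt long. The rule gave 398 of the 5118 protein-coding genes on these chromosomes (7.78%), of which 204 lie on chromosome I, 130 on chromosome II and 64 on chromosome III. Their rows are 87 to 749 nt long with a median of 559.5 nt, against a median of 1996 nt in the other 4720 genes. The rule uses length and no histone measurement.

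Histone H3 acetylated on lysine 14 (H3K14ac), histone H4 acetylated on lysines 5, 8, 12 and 16 (H4ac) and histone H3 itself were measured by ChIP-seq, which sequences the DNA of sheared, cross-linked chromatin pulled down by an antibody. The cells were the wild-type strain YAM2394, which the study's methods give as h+ with the markers leu1-32, ura4-D18 and ade6-M210, in exponential growth, and every group came from this 1 strain with no treatment. There were 2 biological replicates for each of H3K14ac (antibody from Millipore), H4ac (Millipore) and H3 (Abcam), and the 2 Input libraries that the labels also list were not analysed here. One legend of the study names another wild-type strain for the same experiment, which the methods give as h- with no such markers. The mating type and the markers of the cells are therefore uncertain. Growth in rich medium is given for all strains.

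Acetylation removes the positive charge of a lysine and is found on nucleosomes near the start of transcribed genes, where it loosens chromatin and is read by remodelling and transcription complexes. In fission yeast the silent domains, at the chromosome ends, the centromeres and the silent mating-type cassettes, are kept low in acetylation by histone deacetylases. Short genes in yeasts include most ribosomal protein genes, many small mitochondrial proteins and many predicted small proteins of unknown function.

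Values are tag densities, the number of sequenced tags per nt of a gene row after 1 scaling factor per library. A ratio is a difference of log2(density + 0.01) between antibodies, which understates changes of genes with low density. A ratio of 0 marks an equal share of the tags in both libraries, and not an absolute amount of acetylation. A gene was called higher or lower where limma gave a Benjamini-Hochberg adjusted p under 0.05 over 5128 genes. Of these, 47.4% were called higher and 45.9% lower in H3K14ac against H3, so a call alone is common. For genes named as extremes of a ratio, acetyl values that do not overlap H3 largely follow from that choice. The short genes held 416516 and 413419 tags in H3K14ac replicates 1 and 2, 401693 and 382440 in H4ac and 226541 and 207270 in H3. The median short gene held 492.5 to 1063.5 tags per library, and 395 of 398 held at least 30 tags in each of the 6 libraries.

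The coding sequences below are the 4 lowest and the 4 highest in H3K14ac/H3 among the short genes with a coding sequence in RefSeq of at most 300 nt and at least 30 tags in every library, shown because these outliers are small enough to print whole. They were read 5′ to 3′ on the coding strand, introns removed, from RefSeq's annotation of build ASM294v3, and the capitals mark the start codon and the stop codon. SPAC20G4.09 and SPAC823.02, at 2.24 and 2.18, would also rank here but have no RefSeq entry.
SPBC3D6.16 (chrII:1296915-1297260, + strand, 95 codons before the stop, log2 H3K14ac/H3 of -1.66): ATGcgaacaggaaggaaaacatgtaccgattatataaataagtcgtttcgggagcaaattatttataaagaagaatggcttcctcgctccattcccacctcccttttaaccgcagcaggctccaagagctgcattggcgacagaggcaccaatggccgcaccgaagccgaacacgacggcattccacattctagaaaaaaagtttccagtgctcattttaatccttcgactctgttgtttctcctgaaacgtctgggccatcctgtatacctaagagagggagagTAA
hsp9 (chrI:5320399-5320605, - strand, 68 codons, -1.59): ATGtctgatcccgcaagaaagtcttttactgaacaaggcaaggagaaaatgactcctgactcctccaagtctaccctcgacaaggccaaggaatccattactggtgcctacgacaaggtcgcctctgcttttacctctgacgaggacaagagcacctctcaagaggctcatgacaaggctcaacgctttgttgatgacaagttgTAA
pbi2 (chrIII:1355276-1355509, - strand, 77 codons, -1.51): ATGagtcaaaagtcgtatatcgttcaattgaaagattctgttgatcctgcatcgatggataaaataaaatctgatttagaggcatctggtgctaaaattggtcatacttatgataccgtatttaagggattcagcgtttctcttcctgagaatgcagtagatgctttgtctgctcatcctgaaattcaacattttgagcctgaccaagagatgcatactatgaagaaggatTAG
SPAC29A4.22 (chrI:5124392-5124613, + strand, 73 codons, -1.49): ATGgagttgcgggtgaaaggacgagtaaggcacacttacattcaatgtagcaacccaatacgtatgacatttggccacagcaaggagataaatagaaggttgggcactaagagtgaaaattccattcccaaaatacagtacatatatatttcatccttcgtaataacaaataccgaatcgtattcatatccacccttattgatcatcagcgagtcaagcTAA
SPBC1685.17 (chrII:522740-522985, + strand, 81 codons, 2.85): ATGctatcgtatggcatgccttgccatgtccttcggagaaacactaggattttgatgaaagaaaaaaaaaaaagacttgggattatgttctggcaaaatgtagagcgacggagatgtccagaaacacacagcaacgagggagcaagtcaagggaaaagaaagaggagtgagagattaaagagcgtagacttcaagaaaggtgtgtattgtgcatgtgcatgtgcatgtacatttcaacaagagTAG
SPAC27E2.12 (chrI:4010913-4011317, + strand, 76 codons, 2.49): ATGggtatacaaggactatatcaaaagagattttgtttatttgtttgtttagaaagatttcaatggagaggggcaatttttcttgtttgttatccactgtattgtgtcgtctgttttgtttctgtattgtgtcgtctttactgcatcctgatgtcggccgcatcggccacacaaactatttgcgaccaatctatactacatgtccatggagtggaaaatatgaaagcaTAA
SPAC19D5.10c (chrI:5221387-5221719, - strand, 87 codons, 2.23): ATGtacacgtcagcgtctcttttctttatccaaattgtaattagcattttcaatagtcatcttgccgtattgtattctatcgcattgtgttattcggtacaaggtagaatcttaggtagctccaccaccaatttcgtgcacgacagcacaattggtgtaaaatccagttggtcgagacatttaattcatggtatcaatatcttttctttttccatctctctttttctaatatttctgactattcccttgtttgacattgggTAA
SPAC27E2.14 (chrI:4012522-4012677, - strand, 34 codons, 2.17): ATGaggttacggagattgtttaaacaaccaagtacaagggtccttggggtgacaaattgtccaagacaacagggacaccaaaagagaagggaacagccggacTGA
The mating-type gene mat1-Mi (chrII:2114219-2114347, - strand, 42 codons) is shown for another reason, since its coding sequence equals that of mat3-Mi (chrII:2132586-2132714) base for base and tags of the copies cannot be told apart.
mat1-Mi: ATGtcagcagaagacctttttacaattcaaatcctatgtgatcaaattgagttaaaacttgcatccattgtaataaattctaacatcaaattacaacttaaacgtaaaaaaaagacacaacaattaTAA

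Most short genes were high in both acetylation marks relative to H3. The median short gene had 1.84 tags per nt in H3K14ac, 1.69 in H4ac and 0.919 in H3, against 1.21, 1.21 and 1.25 tags per nt in the other genes. The median log2 H3K14ac/H3 was 1.11 in short genes and -0.04 in the other genes. Replicate 1 alone gave 1.13 and replicate 2 alone 1.10 for the short genes, so the difference from the other genes was far larger than that between replicates. The median log2 H4ac/H3 was 0.94 in short genes (0.95 and 0.93 in replicates 1 and 2), against -0.03 in the other genes.

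Of the 398 short genes, 315 were called higher in H3K14ac than in H3, 74 were called lower and 9 were not called. Over all 5128 genes tested, 47.4% were called higher and 45.9% lower. In H4ac against H3, 312 short genes were called higher, 73 lower and 13 were not called, with 47.1% of all tested genes called higher and 45.5% lower. A ratio at least 2-fold above H3 was found for H3K14ac in 226 short genes (56.8%), against 8.35% of the other genes. At the low end, 29 short genes (7.29%) were at least 2-fold below H3 in H3K14ac, against 6.84% of the other genes. In H4ac the shares lay further apart, with 42 short genes (10.6%) at least 2-fold below H3, against 5.38% of the other genes. Position goes with this difference, since 7.29% of the short genes and 2.03% of the other genes lie within 100 kb of an end of chromosome I or II. The 29 short genes there had a median log2 H4ac/H3 of -1.64 and an upper quartile of -1.23. The 4 genes of the mating-type cassettes had a median of -2.38.

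The median ratio hardly varied with length among the short genes and fell with length above them. The median log2 H3K14ac/H3 was 1.15 in genes of 1 to 250 nt (n = 24), 1.12 at 251 to 500 nt (n = 126) and 1.10 at 501 to 749 nt (n = 248). The low side did vary, with lower quartiles of -0.32, 0.02 and 0.63 in these bins and 29.2%, 22.2% and 15.7% of the genes called lower. The median was 0.83 at 750 to 1000 nt, 0.42 at 1001 to 1500 nt, 0.05 at 1501 to 2000 nt, -0.24 at 2001 to 3000 nt, -0.44 at 3001 to 5000 nt and -0.78 above 5000 nt. Across the 398 short genes Spearman's rho of length with H3K14ac/H3 was -0.07, and across the 4720 other genes it was -0.51, as descriptions over genes that share the same 6 libraries.

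**Figure D1:**
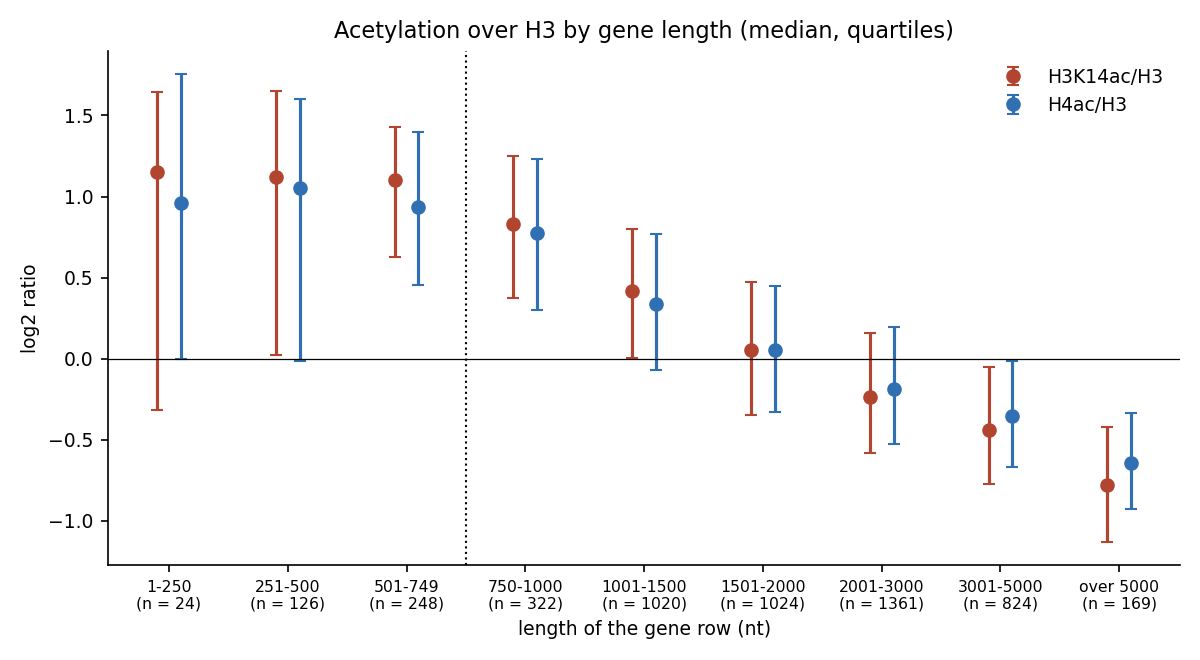
Median log2 H3K14ac/H3 (red) and log2 H4ac/H3 (blue) in bins of gene length in nt, with the quartiles of the genes as bars; the dotted line marks 750 nt. The 3 bins of short genes sit at 1.15, 1.12 and 1.10 in H3K14ac/H3 with wide lower quartiles, and the medians then fall to -0.78 above 5000 nt.

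The table also holds coding exons, so the 5′ and 3′ ends of the longer genes could be set beside the short genes at similar lengths. First coding exons of 200 to 749 nt in the other genes had a median log2 H3K14ac/H3 of 1.13 (n = 473; 1.12 and 1.15 in replicates 1 and 2), close to the 1.10 of the short genes of 200 to 749 nt (n = 387). Last coding exons of the same length had a median of -0.53 (n = 811; -0.52 in each replicate). Where a gene had both exons in this length range, the first was the higher in 180 of 202 genes. For H4ac/H3 the medians were 0.94 in the short genes, 0.77 in first exons and -0.35 in last exons. The H3 density did differ between short genes (median 0.916 tags per nt) and these first exons (1.29 tags per nt).

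Low H3 accompanied the high ratios. When all nuclear genes were ranked by H3 density and cut into 4 equal bins, the lowest bin, at most 1.08 tags per nt, held 63.6% of the short genes and 21.8% of the other genes. Within that bin the median log2 H3K14ac/H3 was 1.35 in 253 short genes and 0.75 in 1027 other genes. In the second bin it was 0.80 in 48 short genes and 0.16 in 1231 other genes, and in the third 0.64 in 38 short genes and -0.19 in 1241 other genes. In the top bin, above 1.38 tags per nt, it was -0.62 in 59 short genes and -0.57 in 1221 other genes. These 59 genes include 18 near the ends of chromosomes I and II and no cytosolic ribosomal protein gene. Without the chromosome ends the direction turned, with -0.23 in 38 short genes and -0.55 in 1137 other genes, as in the lower bins. Since H3 is the denominator, a ratio and the H3 density are not independent measures.

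By function, ribosomal protein genes were the largest class of known function. All 76 short genes of cytosolic ribosomal proteins were called higher in both marks, against 47.4% (H3K14ac/H3) and 47.1% (H4ac/H3) of all tested genes. Their median log2 H3K14ac/H3 was 1.40, with a range of 0.63 to 2.14. Their H3 density was low, with a median of 0.712 tags per nt. Ribosomal protein gene rpl2801, for the large subunit protein uL15, had 2.84 and 2.91 tags per nt in H3K14ac, 2.86 and 2.73 in H4ac and 0.667 and 0.625 in H3. Its acetyl densities were over 4 times its H3 densities in every pairing of libraries. At the other end, rps1801, for the small subunit protein uS13, had 1.35 and 1.38 tags per nt in H3K14ac, 1.29 and 1.27 in H4ac and 0.878 and 0.880 in H3. Even this lowest ribosomal protein gene was above H3 in all 4 acetyl libraries (log2 0.63, SE 0.03, limma adjusted p = 1.98e-09 for H3K14ac).

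All 14 genes of mitochondrial ribosomal proteins were called higher in H3K14ac/H3 (median log2 of 1.26), against 47.4% of all tested genes. They ranged from mrpl28 at 0.75 to mrpl44 at 2.01. All 17 genes of the respiratory chain and ATP synthase were called higher too, with a median of 1.06. They ranged from coa6, a cytochrome c oxidase assembly factor, at 0.51 to fmc1, an ATP synthase assembly factor, at 1.96. In the 5 other mitochondrial genes, all called higher, the values ran from 0.85 for tim18, of the inner membrane import machinery, to 1.71 for aim41.

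Genes of other basic machinery were mostly high as well, where 47.4% of all tested genes were called higher in H3K14ac/H3. The 7 genes of ubiquitin and proteasome were all called higher, from ubi2 at 0.80 to ubi3 at 1.43, both of which encode ubiquitin fused to a ribosomal protein. The 7 genes of splicing and Sm-like proteins were all called higher, from lsm8, for an Sm-like protein bound to U6 RNA, at 0.35 to sap10, for a subunit of a U2 splicing factor, at 1.63. In H4ac/H3 lsm8 had -0.02 and was not called. Of the 11 genes of rRNA processing, RNA and translation, 10 were called higher, with nxt1, the mRNA export factor, at 1.90, and fcf2 had -0.01 and was not called. Of the 8 genes of chromatin, centromere and DNA repair, 7 were called higher, with ctf8, of a clamp loader used in sister chromatid cohesion, at 2.21. The eighth, cdm1, a subunit of DNA polymerase delta, was called lower at -0.19.

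**Figure D2:**
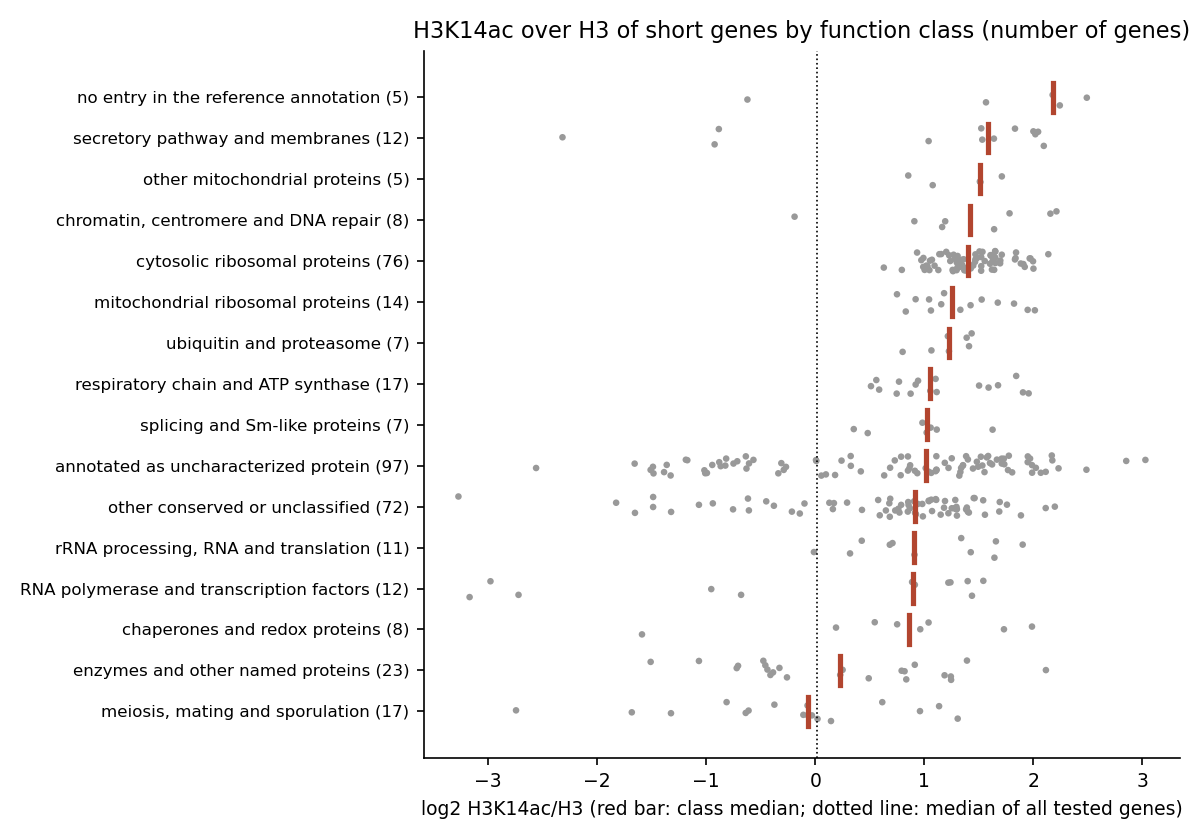
Log2 H3K14ac/H3 of each short gene (grey points) by function class, with the class median as a red bar and the median of all tested genes as a dotted line; classes of at least 5 genes are shown with their number of genes. The 76 ribosomal protein genes sit between 0.63 and 2.14, while the meiosis class is centred near 0 and the uncharacterized proteins span -2.56 to 3.03.

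Genes of meiosis, mating and sporulation were the class with the lowest median. Of 17 such genes, 5 were called higher in H3K14ac/H3, 8 were called lower and 4 were not called, with a median log2 of -0.07, against 0.01 over all tested genes and 1.11 over the short genes. The 47.1% called lower is close to the 45.9% of all tested genes, and the 29.4% called higher lies below their 47.4%. In H4ac/H3, 6 were called higher, 8 lower and 3 were not called, with a median of -0.07. Away from the chromosome ends and the cassettes, 15 of these genes kept a median H3K14ac/H3 of -0.07, with 5 called higher and 7 lower.

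The lowest of them with enough tags was mug128, 1 of a group of meiotically up-regulated genes, with 0.586 and 0.497 tags per nt in H3K14ac, 0.691 and 0.728 in H4ac and 1.75 and 1.76 in H3. All 4 acetyl values lie below both H3 values (H3K14ac/H3 log2 -1.68, SE 0.06, limma adjusted p = 9.08e-10). The gene rec6, for a protein of meiotic recombination, had 0.687 and 0.729 tags per nt in H3K14ac, 0.718 and 0.770 in H4ac and 1.81 and 1.76 in H3. Its marks also lay wholly below H3 (H3K14ac/H3 log2 -1.32, adjusted p = 2.25e-10). The highest gene of the class was mug15, with 2.23 and 2.30 tags per nt in H3K14ac, 1.61 and 1.63 in H4ac and 0.942 and 0.879 in H3, and all 4 acetyl values lay above both H3 values (H3K14ac/H3 log2 1.31, adjusted p = 9.97e-11). Genes of the sporulation proteins Spo2 and Spo13 had -0.61 and -0.11, and mfm3, for the M-factor mating pheromone, had -0.37, all 3 called lower, while mfm2, for the same pheromone, was called higher at 0.61.

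Of the 23 enzymes and other named proteins, 12 (52.2%) were called higher in H3K14ac/H3 and 11 (47.8%) lower, with a median log2 of 0.23, and these shares are close to the 47.4% and 45.9% of all tested genes. Among these, 6 of the 11 lower ones lie within 100 kb of an end of chromosome I or II, and without the chromosome ends the median of the remaining 17 genes was 0.79. The highest was pop8, a subunit of RNase P and RNase MRP, at 2.12. The lowest was pbi2, for an inhibitor of proteinase B, with 0.454 and 0.456 tags per nt in H3K14ac, 0.438 and 0.435 in H4ac and 1.34 and 1.29 in H3. Its marks did not overlap H3 and hardly differed from each other (H3K14ac/H3 log2 -1.51, SE 0.04, adjusted p = 8.1e-11).

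Of 12 secretory and membrane genes, 9 (75%) were called higher and 3 (25%) lower, against 47.4% and 45.9% of all tested genes. Their median log2 H3K14ac/H3 was 1.58. The 9 higher ones include tvp15, of Golgi vesicles and the highest of the class, bet5, of the TRAPP vesicle tethering complex, at 2.00, and ost4, of the oligosaccharyltransferase, at 1.83. All 3 lower ones, SPAC212.12, ftm7 and ftm3, lie near a chromosome end. Of 12 genes of RNA polymerase and transcription factors, 7 (58.3%) were called higher, among them the elongation factor gene spt4 at 1.54, and 5 (41.7%) lower. These shares are near those of all tested genes, while the class median log2 H3K14ac/H3 was 0.90. Of the 5 called lower, 3 are the mating-type cassette genes mat1-Mc, mat3-Mc and mat1-Mi. The others are cuf2 at -0.95 and sfc7, for a subunit of TFIIIC, at -0.68. Away from the chromosome ends and the cassettes, 7 of 9 genes of this class were called higher and 2 lower, with a median of 1.22. The class terms placed mat3-Mi, with the same coding sequence as mat1-Mi, among the genes of meiosis and mating. Of 8 chaperone and redox genes, 7 were called higher, with the prefoldin gene pfd4 at 1.99, and the remaining one was hsp9.

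Genes annotated only as an uncharacterized protein spread widely. Of 97, 65 (67.0%) were called higher in H3K14ac/H3, 28 (28.9%) lower and 4 were not called, against 47.4% and 45.9% of all tested genes. The quartiles were -0.34 and 1.59, against 1.24 and 1.63 in the ribosomal protein genes. This class was split off from the unclassified genes after the data were seen. Away from chromosome ends, 62 of 82 were called higher and 16 lower.

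The 74 short genes called lower in H3K14ac/H3 comprised 26 within 100 kb of an end of chromosome I or II, 4 in the mating-type cassettes, 7 further genes of meiosis and mating and 37 others, 17 of which are annotated as an uncharacterized protein. The 37 include pac2, a regulator of sexual development that the class terms left unclassified, so the 7 can undercount such genes. At least 2-fold below H3 there were 29, of which 12 lie near a chromosome end, 4 in the cassettes and 13 elsewhere.

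Among those elsewhere the lowest was pac2 (chrI:3006138-3006845), a regulator of the onset of sexual development in fission yeast. It had 0.331 and 0.359 tags per nt in H3K14ac, 0.506 and 0.548 in H4ac and 1.25 and 1.24 in H3. All 6 libraries put the marks below H3, and H3K14ac below H4ac (H3K14ac/H3 log2 -1.82, SE 0.05, adjusted p = 1.71e-10; H3K14ac/H4ac log2 -0.60, adjusted p = 9.09e-06). Its H3 density was close to the median of the other genes.

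The heat shock gene hsp9, a relative of budding yeast HSP12, was low in the marks without being rich in H3. It had 0.280 and 0.275 tags per nt in H3K14ac, 0.289 and 0.290 in H4ac and 0.878 and 0.831 in H3. The 4 acetyl values were nearly equal, and all lay below both H3 values (H3K14ac/H3 log2 -1.59, SE 0.07, adjusted p = 2.99e-09). The uncharacterized gene SPBC3D6.16 had 0.466 and 0.482 tags per nt in H3K14ac, 0.531 and 0.553 in H4ac and 1.65 and 1.39 in H3. Its H3 replicates differed more from each other than its acetyl replicates, yet did not overlap them (H3K14ac/H3 log2 -1.66, adjusted p = 1.74e-09).

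Short genes were also set beside the nearest longer gene on each side. Of all 398, 320 (80.4%) had a log2 H3K14ac/H3 above the mean of these neighbours, whose median was -0.07. Genes picked by their call differ from their neighbours partly by that choice, so the following values are descriptions. Among the 43 short genes called lower away from the ends of all 3 chromosomes and the cassettes, the median log2 H3K14ac/H3 was -0.68, and the neighbours' mean had a median of -0.01. Among the 26 called lower near the ends of chromosomes I and II the median was -0.96 in the short genes and -1.06 in their neighbours.

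**Figure D3:**
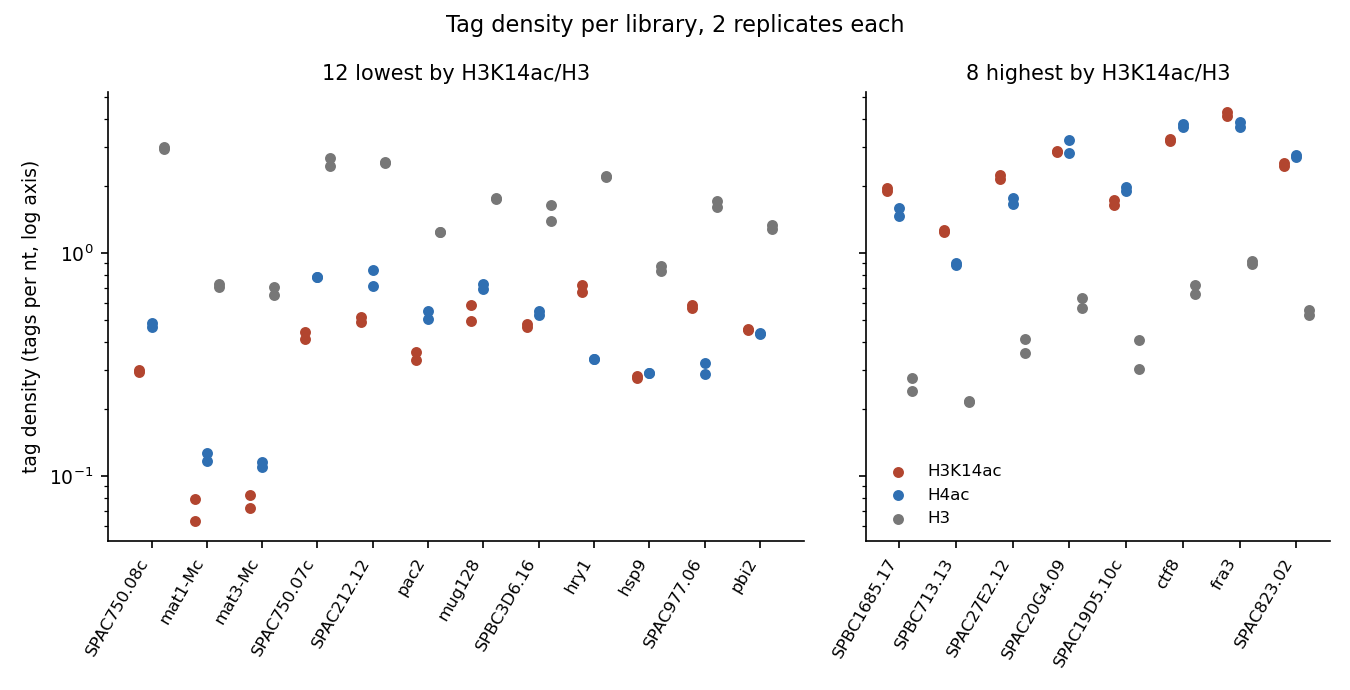
Tag density in tags per nt on a log axis for each library (2 points per antibody) in the 12 short genes with the lowest and the 8 with the highest log2 H3K14ac/H3 among those with at least 30 tags in every library. In the low genes the grey H3 points lie above both acetyl marks, and in the high genes both marks lie above H3.

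The mating-type cassettes were low in both marks relative to H3. Their median H3 density was 0.818 tags per nt. How tags of repeated copies were counted is not known, so whether the cassettes are rich in H3 cannot be told. The gene mat1-Mc, for an HMG-box factor that directs the M mating type, had 0.0632 and 0.0794 tags per nt in H3K14ac, 0.127 and 0.117 in H4ac and 0.705 and 0.729 in H3. The gene mat3-Mc, its copy in the silent cassette, had 0.0721 and 0.0824 tags per nt in H3K14ac, 0.116 and 0.110 in H4ac and 0.648 and 0.705 in H3. Both marks were far below H3 in every library of both copies (H3K14ac/H3 log2 -3.17, SE 0.26, adjusted p = 5.97e-07 for mat1-Mc, and -2.98, SE 0.26, adjusted p = 1.12e-06 for mat3-Mc).

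The small genes mat1-Mi and mat3-Mi, at 129 nt, held as few as 16 and 17 tags in a library and so fell outside the rule for named genes. Their ratios were -2.72 and -2.74, called lower in both cases. None of the 50-mers of the 4 cassette genes is unique in the reference, so the values of a pair are 1 measurement of both copies and not a check of each other. The reference carries M information at mat1, and which cassettes the cells carried was not tested. The H3K14ac/H4ac call of mat1-Mc (log2 -0.70, adjusted p = 0.0344) was lost in 6 of 14 alternatives: without replicate 1 of H4ac (adjusted p = 0.0658), without replicate 1 or 2 of H3 (0.103 and 0.106), with a pseudocount of 0.1 (0.0693), over nuclear genes only (0.0601) and over coding exons only (0.0739). Over the 14 its limma adjusted p ran from 8.55e-05 to 0.106 and its log2 from -0.85 to -0.37. In mat3-Mc the ratio was not called (-0.50, adjusted p = 0.116), but it was with no filter on low values (0.000138) and with tag weights from voom (0.00525), and its adjusted p reached 0.244 in the others.

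Short genes near the ends of chromosomes I and II were mostly low in both marks. Of 29 within 100 kb of an end, 26 (89.7%) were called lower and 3 higher in H3K14ac/H3, and the same numbers held in H4ac/H3. Over all tested genes 45.9% and 45.5% were called lower. Among the 96 other genes of the same stretches 79.2% and 78.1% were called lower, so low calls were not particular to short genes. The median log2 of the 29 short genes was -0.88 in H3K14ac/H3 and -1.64 in H4ac/H3, against -0.79 and -1.32 in those 96 genes. The 6 short genes within 100 kb of an end of chromosome III had a median H3K14ac/H3 of 0.85, and the 363 elsewhere 1.18. At most 20 kb from an end the median was -1.25 (n = 8), at 20 to 50 kb -0.87 (n = 12) and at 50 to 100 kb -0.48 (n = 9). Genes with at least 90% unique 50-mers numbered 0, 1 and 9 in these bins. Distance and repeated sequence therefore cannot be told apart here. The only 3 called higher, ecl3, SPAC922.09 and SPAC922.04, are the 3 farthest out, at 95.8 to 98.6 kb.

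Of the 29, 19 have under 90% unique 50-mers, which is most of the 27 such short genes in all. Where 50-mers recur, the tags of the copies cannot be told apart. The methods state unique mapping of 50 nt reads, yet the 15 short genes with no unique 50-mer, the cassette genes among them, held 114 to 2222 tags in an H3 library, so which copies their densities stand for is not known. The 10 with at least 90% unique 50-mers had a median log2 of -0.59 in H3K14ac/H3 and -1.31 in H4ac/H3, with 7 called lower and 3 higher in each. These 3 are the genes farthest from an end.

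The gene nearest an end, SPAC750.08c (chrI:5578447-5579133), annotated as a NAD-dependent malic enzyme, had 0.300 and 0.295 tags per nt in H3K14ac, 0.487 and 0.465 in H4ac and 2.98 and 2.94 in H3. It had the highest H3 density and the lowest H3K14ac/H3 of the short genes with at least 30 tags in every library (log2 -3.27, SE 0.04, adjusted p = 2.01e-12). None of its 50-mers is unique. The genes SPAC750.07c and SPAC212.12 were next, with log2 H3K14ac/H3 of -2.56 and -2.32 and mean H3 densities of 2.56 and 2.55 tags per nt.

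**Figure D4:**
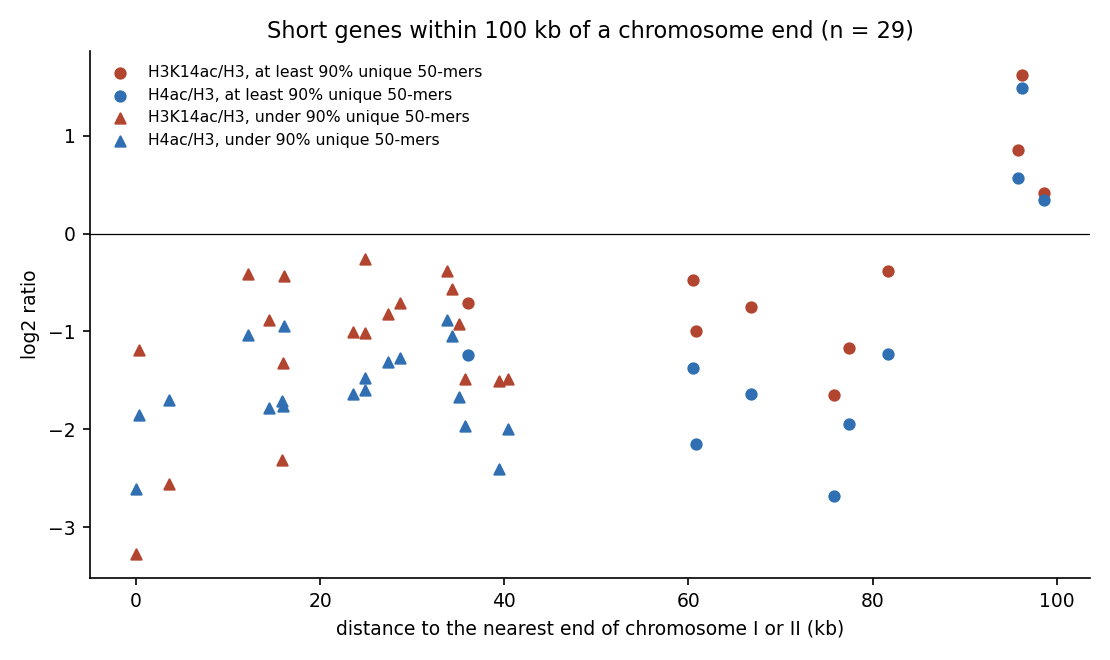
Log2 H3K14ac/H3 (red) and log2 H4ac/H3 (blue) of the 29 short genes within 100 kb of an end of chromosome I or II against their distance from it in kb; circles have at least 90% unique 50-mers and triangles fewer. Blue points lie below red ones in most genes, the 3 genes beyond 95 kb are above 0, and 3 genes within 20 kb have red below blue.

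At the chromosome ends the marks parted. In H3K14ac/H4ac, 25 of the 29 were called higher and 3 lower, while over all tested genes 32.9% were called higher and 36.6% lower. The median was 0.56 in the 29 short genes, against 0.38 in the 96 other genes of the same stretches, of which 66 were called higher and 19 lower, so the parting was not particular to short genes. All 398 short genes had 203 called higher, 80 lower and 115 not called, with a median of 0.10, against -0.02 in the other genes. The 3 lower ones near the ends, SPAC750.08c, SPAC750.07c and SPAC212.12, lie within 20 kb of an end and have no unique 50-mers. The gene hry1 (chrI:5502560-5503291), whose 50-mers are all unique, had 0.720 and 0.671 tags per nt in H3K14ac, 0.336 in both H4ac libraries and 2.20 and 2.21 in H3. H3K14ac was above H4ac in both replicates without overlap and both were far below H3 (H3K14ac/H4ac log2 1.03, SE 0.04, adjusted p = 8.01e-08).

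SPBC1348.09, annotated as a dehydrogenase, had the highest H3K14ac/H4ac of the short genes with at least 30 tags in every library. It had 1.64 and 1.55 tags per nt in H3K14ac, 0.687 and 0.678 in H4ac and 1.89 and 1.94 in H3 (log2 1.21, adjusted p = 2.18e-08), and none of its 50-mers is unique. The uniquely mappable SPBPB2B2.08 had 0.968 and 1.07 tags per nt in H3K14ac, 0.469 and 0.432 in H4ac and 2.05 and 2.01 in H3 (log2 1.16, adjusted p = 1.48e-07). In both genes H3K14ac lay below H3 and H4ac lay lower still, with no overlap between antibodies. The lowest H4ac/H3 of all was that of hry1 at -2.68, and SPAC977.06 at -2.41, SPBPB2B2.08 at -2.15 and ftm3 at -1.78 were other chromosome-end genes low in H4ac.

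The opposite difference was largest away from the ends. SPAPB18E9.05c, uncharacterized, had 0.543 and 0.515 tags per nt in H3K14ac, 1.15 and 1.10 in H4ac and 0.493 and 0.524 in H3. H3K14ac overlapped H3 and H4ac did not (H3K14ac/H4ac log2 -1.07, adjusted p = 1.48e-07; H3K14ac/H3 log2 0.06, adjusted p = 0.255). The mitochondrial protein gene cmc4 had 1.34 and 1.42 tags per nt in H3K14ac, 2.30 and 2.77 in H4ac and 0.666 and 0.606 in H3 (H3K14ac/H4ac log2 -0.87, adjusted p = 7.02e-06). The gene new25 was called lower in H3K14ac/H3 at -0.45 and higher in H4ac/H3 at 0.36. Across the 398 genes the 2 ratios to H3 followed each other with Spearman's rho of 0.95, and they share the H3 libraries.

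**Figure D5:**
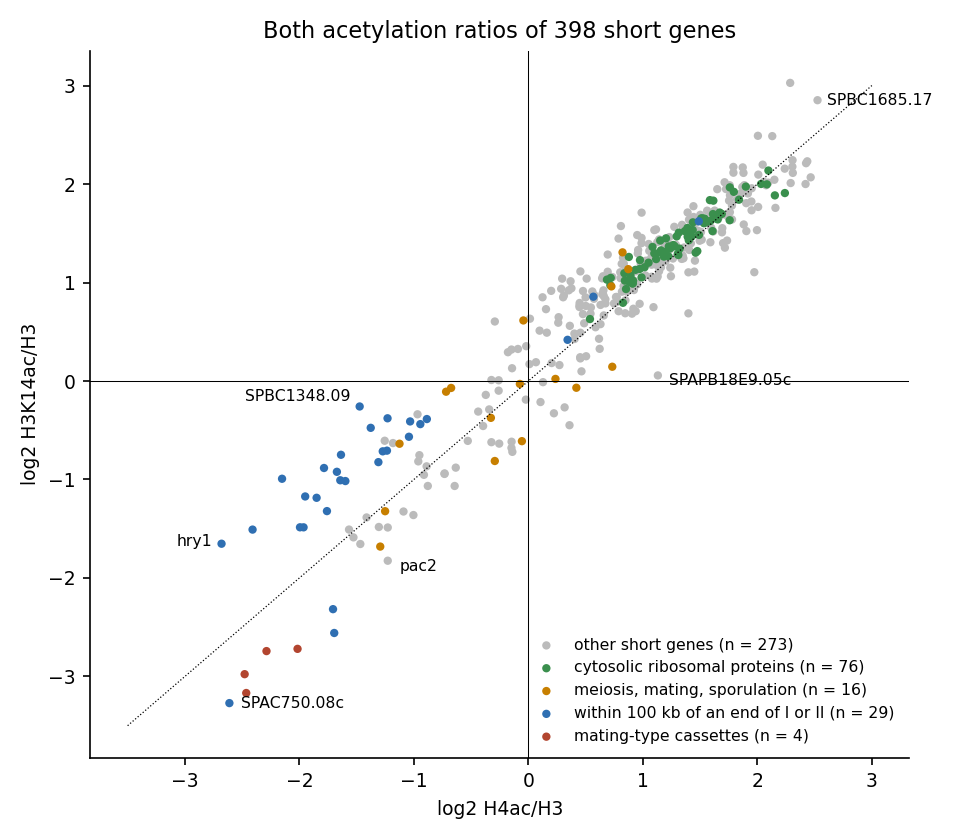
Log2 H3K14ac/H3 against log2 H4ac/H3 for the 398 short genes, 1 point per gene, coloured by group; the dotted diagonal marks equal ratios. Ribosomal protein genes lie in the upper right, chromosome-end genes lie mostly above the diagonal at low values, and the 4 cassette genes lie in the lower left.

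At the high end, SPBC1685.17 (chrII:522603-523313), uncharacterized, led among the genes with at least 30 tags in every library. It had 1.89 and 1.95 tags per nt in H3K14ac, 1.60 and 1.47 in H4ac and 0.275 and 0.242 in H3. Its acetyl densities were near the median of short genes, and its H3 density was low (H3K14ac/H3 log2 2.85, SE 0.06, adjusted p = 2.26e-11; H4ac/H3 log2 2.53). SPBC32H8.15, with 24 and 13 H3 tags, had a still higher ratio of 3.03 but so few tags that it fell outside the rule. The next highest were SPBC713.13 and SPAC27E2.12, both at 2.49, SPAC20G4.09 at 2.24, SPAC19D5.10c at 2.23, ctf8 at 2.21, fra3 at 2.20 and SPAC823.02 at 2.18. SPBC713.13, SPAC27E2.12, ctf8, fra3 and SPAC823.02 each overlap 1 other gene row, and SPBC1685.17 overlaps 3 rows of other kinds. Their densities can therefore include tags of those features. SPBC713.13, SPAC20G4.09 and SPAC823.02 have no RefSeq entry. In H4ac/H3 the highest also included SPBC1347.14c at 2.47 and SPAC23C11.07 at 2.31.

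Other outliers had high acetyl density as well as low H3. The cohesion gene ctf8 had 3.24 and 3.20 tags per nt in H3K14ac, 3.78 and 3.69 in H4ac and 0.723 and 0.653 in H3. The gene fra3 had 4.28 and 4.12 tags per nt in H3K14ac, 3.87 and 3.70 in H4ac and 0.926 and 0.890 in H3. Both had more than 3 times the acetyl tags of H3 in every library. The lowest H3 densities were in SPAC27E2.11c (mean 0.0557 tags per nt), SPAC1786.04 (0.152) and SPAC23C11.07 (0.156). SPAC27E2.11c held 30 and 45 H3 tags, and its ratio of 2.01 had an SE of 0.35.

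The short genes called higher and lower were compared in features that the rule did not use, and they differed in some of them. Introns were present in 50.8% of the higher ones and 16.2% of the lower ones. A row with no untranslated part, which is the coding region alone, was found for 32.7% of the higher and 63.5% of the lower ones. Of the higher ones 0.952% and of the lower ones 32.4% had under 90% unique 50-mers. This feature overlaps with position, since 19 of the 27 such short genes lie within 100 kb of an end of chromosome I or II. Of the lower ones 35.1% lie there. An antisense Xrn1-sensitive unstable transcript, a noncoding RNA overlapping the other strand, was present at 12.7% of the higher and 13.5% of the lower ones. Median GC content was 37.0% and 37.2%, and the median H3 density was 0.840 and 1.43 tags per nt. Since H3 is the denominator of the ratio that was called, the difference in H3 is partly built in.

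The 3 shortest genes, SPAC11D3.20 (87 nt), ost4 (99 nt) and SPAC20G4.09 (120 nt), had log2 H3K14ac/H3 of -0.62, 1.83 and 2.24. All 3 were called, and SPAC11D3.20 was the only 1 of them below H3. Just inside the length limit, at 749 nt, SPAC1002.20 had 0.87, rpl1901 had 1.03 and rps1201 had 1.23, and just outside it, at 750 nt, rps2401 had 1.25. Over its coding exons alone SPAC1002.20 had 0.16 and was not called (adjusted p = 0.108). In 271 of the 398 genes the reference gives another row length, which is 750 nt or more in 13.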

How the data were processed

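ChIP-seq was performed by the authors on 2 biological replicates per antibody with single-end 50 nt reads, after fixation in 1% formaldehyde for 10 min. Reads were mapped uniquely with Bowtie2 to ASM294v2, per the submitters' processing notes and the methods, although genes with no unique 50-mer in the reference hold tags. What the authors deposited for 19343 rows was a signal: tags per nt of the row. How a tag was assigned to a row is not stated, so a density over a short row can include tags of its flanks. Density times length was a whole multiple of 1 step in 100% of values (tolerance 0.01 tags), with steps of 0.905 to 1 per library, and tags were recovered from it. Pooled columns equal the replicate sums and were not used.

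Genes reaching a density of 0.05 in 2 or more libraries (5128, with all 398 short ones) were fitted as log2(density + 0.01) with limma 3.58.1 in R 4.3.3, with 1 mean per antibody and an intensity trend. A count model was planned only for a table of whole counts, and was not used because the deposited unit is a density. The step was tested on simulated data. Between replicates of the short genes, log2 differences had an SD of 0.0853 in H3K14ac, 0.101 in H4ac and 0.114 in H3. The H3 replicates differed by no more than counting noise over the short genes (chi-square p = 0.343) but more over the other genes (p = 7.04e-23), so they were kept as 2 libraries. A floor of 3 tags is 0.00536 tags per nt at the median short length, and covers counting error only.

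The members, function classes and tests were chosen with earlier results of these data known. Each gene took the first class whose terms matched its symbol or RefSeq product, and 393 of 398 genes had a RefSeq entry. The reference was ASM294v3, in which 395 of 398 short genes kept an intact reading frame at the table's coordinates. Uniqueness of 50-mers came from this sequence. Named genes held at least 30 tags in each library: the 12 lowest and 8 highest in H3K14ac/H3, the 6 lowest and 6 highest in H4ac/H3, the 4 lowest and 4 highest in H3K14ac/H4ac, the 3 lowest and 3 highest in H3, and the lowest and highest of each class of at least 5 genes, plus the 3 shortest genes and those at the 750 nt limit. Genes named besides these were chosen after their values were seen.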

Additional observations from a re-analysis of the deposited data

How the results depend on the processing

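Among the alternatives run, no median and no named gene changed its direction with a call. Of 2394 recomputed values for the named genes, 2339 kept their call, 32 lost it and 23 gained it. The counts of called short genes stayed within 1.5 times under other pseudocounts, no filter, another centring, nuclear genes or coding exons only, and tag weights with voom (added after the data were seen). They moved mainly where fewer or more genes were counted. Without rows that overlap another row, the higher and lower calls were 142 and 41 in H3K14ac/H3, 143 and 39 in H4ac/H3 and 102 and 34 in H3K14ac/H4ac. Below 600 nt they were 174 and 46, 172 and 45, and 113 and 48. Below 900 nt the higher calls were 479 and 472 against H3, and the lower calls of H3K14ac/H4ac 129. Away from chromosome ends and cassettes (added later), the lower calls were 43 in H3K14ac/H3 and 42 in H4ac/H3. Requiring 1.5-fold as well left 31 higher and 11 lower calls in H3K14ac/H4ac. The medians of H3K14ac/H3, H4ac/H3 and H3K14ac/H4ac shifted by more than the difference between replicates under several settings. With a pseudocount of 0.1 they were 1.02 and 0.87 against H3. Over coding exons they were 1.15, 0.99 and 0.13. Without overlapping rows they were 1.04, 0.84 and 0.12. Below 600 nt H4ac/H3 was 0.99, and below 900 nt the medians were 1.04, 0.90 and 0.091. With at least 90% unique 50-mers (added later) they were 1.15 and 0.99 against H3, and away from ends and cassettes 1.19, 1.05 and 0.087. The cause of these shifts was not tested beyond the change of genes counted. Leaving out 1 library at a time gave medians of 1.10 to 1.12, 0.92 to 0.95 and 0.085 to 0.12, with 315 higher and 73 to 75 lower calls in H3K14ac/H3, 310 to 313 and 72 to 74 in H4ac/H3 and 170 to 212 and 71 to 90 in H3K14ac/H4ac. Correlations of replicate deviations between antibodies were 0.02 (H3K14ac with H3), 0.00 (H4ac with H3) and 0.14 (H3K14ac with H4ac). These deviations were close to counting noise, with a chi-square per gene of 1.02 to 1.33 where 1 is counting noise alone. Whether libraries with the same replicate number were paired therefore cannot be told from them. A fit with the replicate block called 316 higher and 75 lower in H3K14ac/H3, 313 and 73 in H4ac/H3 and 204 and 85 in H3K14ac/H4ac. With 2 replicates per group and as few as 13 tags in a short gene, small differences in the sparsest genes are not detectable at this depth.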
